A study of Sus scrofa with 14 samples.

Results

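Boundaries of topologically associated domains (TADs) that were present in all 4 lists of a pig adipose tissue (AT) series were described here. The lists came from the greater omentum (GOM), a visceral depot, and the upper layer of backfat (ULB), a subcutaneous depot, of wild boar (WB) and Bama pig (BM), with 1 list for each breed and depot. A boundary was taken as the point midway between neighbouring TADs of an autosome that lay at most 400 kb apart, and a WB-GOM boundary was selected on the authors' TAD calls and called shared when each of the WB-ULB, BM-GOM and BM-ULB lists had a boundary within 40 kb of it. Of 3811 autosomal WB-GOM boundaries, 2503 (65.7%) were shared, 1048 (27.5%) were matched in 1 or 2 other lists and 260 (6.82%) were matched in no other list.

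All animals were healthy adult females of 2 years, 2 of each breed, kept in single pens on the same feed. The wild boars had been taken from the wild when young and were raised on the same farm as the Bama pigs. The Bama Xiang line has no long history of inbreeding. In situ Hi-C and RNA-seq values were used from 2 libraries each of WB-GOM, WB-ULB and BM-GOM and from replicate 2 of BM-ULB, and both depots were taken from each animal. Hi-C used the floating adipocyte layer of the tissue, and 1 of the BM-ULB Hi-C libraries behind the merged list came from an earlier study. The TAD lists were called by the authors on merged replicates, the BM-ULB list included, so no list has a replicate, and a boundary that was absent from a list and a boundary that was missed by the caller cannot be told apart.

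TADs are stretches of chromatin whose parts contact each other more often than they contact the neighbouring stretch. In mammals their borders are commonly held by the zinc finger protein CTCF, which stops the loop-extruding cohesin ring in an orientation-dependent way, so that the CTCF motifs at the ends of a domain usually point towards each other. Borders are also known to carry active promoters and housekeeping genes, and some coincide with the switch between the open, gene-rich A compartment and the closed B compartment. Compartments were read here from the sign of the first principal component (PC1) of the contact maps, positive for A and negative for B. The deposited values carry the name of another compartment index, and were read as PC1 because they average 0 on each chromosome.

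Boundary sequences are shown for 6 shared boundaries that lay at the same point in all 4 lists. They were taken from the 414 shared boundaries with the same point and a gap of at most 40 kb, of which 146 held a match of the CTCF core consensus motif within 20 kb, as those with the highest summed TPM of genes within 20 kb. Each line gives the motif match nearest the boundary point in capitals with 25 bases on each side, read 5′ to 3′ along the strand of the motif from the RefSeq sequence of Sscrofa11.1.

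NPM1 boundary, chr16:52772150-52772211, minus strand: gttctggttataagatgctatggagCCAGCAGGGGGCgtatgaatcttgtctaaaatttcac

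PRELID1 boundary, chr2:80639294-80639355, minus strand: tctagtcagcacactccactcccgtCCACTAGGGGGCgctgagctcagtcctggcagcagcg

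IGFBP5 boundary, chr15:118867733-118867794, plus strand: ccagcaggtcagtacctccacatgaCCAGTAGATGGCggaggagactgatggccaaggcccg

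RSU1 boundary, chr10:45069606-45069667, minus strand: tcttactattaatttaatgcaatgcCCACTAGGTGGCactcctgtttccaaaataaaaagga

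RPN1 boundary, chr13:71917633-71917694, minus strand: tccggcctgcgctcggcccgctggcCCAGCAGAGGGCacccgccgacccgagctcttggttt

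MRPS26 boundary, chr17:32628323-32628384, plus strand: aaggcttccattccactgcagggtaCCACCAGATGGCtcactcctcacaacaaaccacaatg

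These matches lie at different places relative to genes. The NPM1, PRELID1 and IGFBP5 windows fall in introns, of NPM1, of MXD3 and of IGFBP5 respectively, and the RSU1 window falls in an intron of the neighbouring gene LOC100739603. The RPN1 window overlaps an exon of the long non-coding RNA LOC102160096, and the MRPS26 window lies between genes. The match was 0.369 kb from the boundary point at RSU1, 1.65 kb at MRPS26, 2.24 kb at IGFBP5, 7.66 kb at RPN1, 10.7 kb at PRELID1 and 17.8 kb at NPM1. At NPM1, PRELID1 and RSU1 the match pointed away from the boundary point, into the TAD on its own side, and at IGFBP5, RPN1 and MRPS26 it pointed across the point.

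Of the 8 genes at these points, GNRH2, which encodes a gonadotropin-releasing hormone, was listed at 0 in BM-GOM replicate 1, and the others were above 1 TPM in every library. NPM1, a nucleolar chaperone of ribosome assembly, had 159 and 194 TPM in WB-GOM, 159 and 211 TPM in WB-ULB, 228 and 252 TPM in BM-GOM and 197 TPM in BM-ULB. RPN1, a subunit of the oligosaccharyltransferase of the endoplasmic reticulum, lay between 71.6 and 134 TPM. IGFBP5, a secreted binding protein of insulin-like growth factors, had 180 and 92.5 TPM in WB-GOM, 270 and 211 TPM in WB-ULB, 123 and 53.8 TPM in BM-GOM and 143 TPM in BM-ULB. None of the 8 genes within 20 kb of these 6 points was called in any of the 3 expression comparisons described later, the lowest adjusted p in edgeR's quasi-likelihood test being 0.171 for IGFBP5 between breeds. Over all genes tested, 0.0241% were called between breeds in GOM and 0.420% between breeds over both depots. Between depots, 2.29% of all genes were higher and 1.29% lower in GOM, so few calls were to be met among 8 genes. PC1 was above 0 on both sides in all 7 libraries at 5 of the points. At RSU1 on chromosome 10, both sides were above 0 in 4 libraries, and both BM-GOM libraries were below 0 on both sides.

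The other 3 lists matched the WB-GOM boundaries at close rates. BM-GOM matched 3060 of 3811 (80.3%), BM-ULB 3075 (80.7%) and WB-ULB 3047 (79.95%), while 12.6%, 13.6% and 13.2% of the autosomal length lay within 40 kb of a boundary in those lists. Among partly matched boundaries, 296 were missing from BM-GOM alone, 183 from WB-ULB alone and 146 from BM-ULB alone. The lists held between 3682 and 3942 TADs and between 3563 and 3862 boundaries, BM-GOM being the shortest list. By chromosome, the shared part ran from 54.6% on chromosome 16 to 75.5% on chromosome 18, with a median of 66.2%.

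Wide gaps were less frequent at shared boundaries. The matched point is the middle of the gap, so gap width enters the rule that set the classes. The shares of wide gaps are therefore no separate trait of shared boundaries. The gap between the TADs was above 200 kb at 2.84% of shared, 8.68% of partly matched and 13.1% of unmatched boundaries, although the median gap was 20 kb in each class and gaps of at most 20 kb were also less frequent, with 51.6%, 56.4% and 64.6%. The median length of the flanking TADs was 480 kb, 450 kb and 470 kb. The point was the same in all 4 lists at 538 shared boundaries (21.5%), and the largest offset was 10 kb at 702, 20 kb at 868, 30 kb at 171 and 40 kb at 224. Just inside the limit, at the 224 boundaries with an offset of 40 kb, 28.6% had a gene start site within 20 kb and 47.8% were B on both sides in all 7 libraries. Just outside it, at 166 boundaries where 1 list missed by 50 or 60 kb, the same shares were 34.3% and 45.2%. At the 538 boundaries with no offset they were 40.7% and 15.2%.

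**Figure D1:**
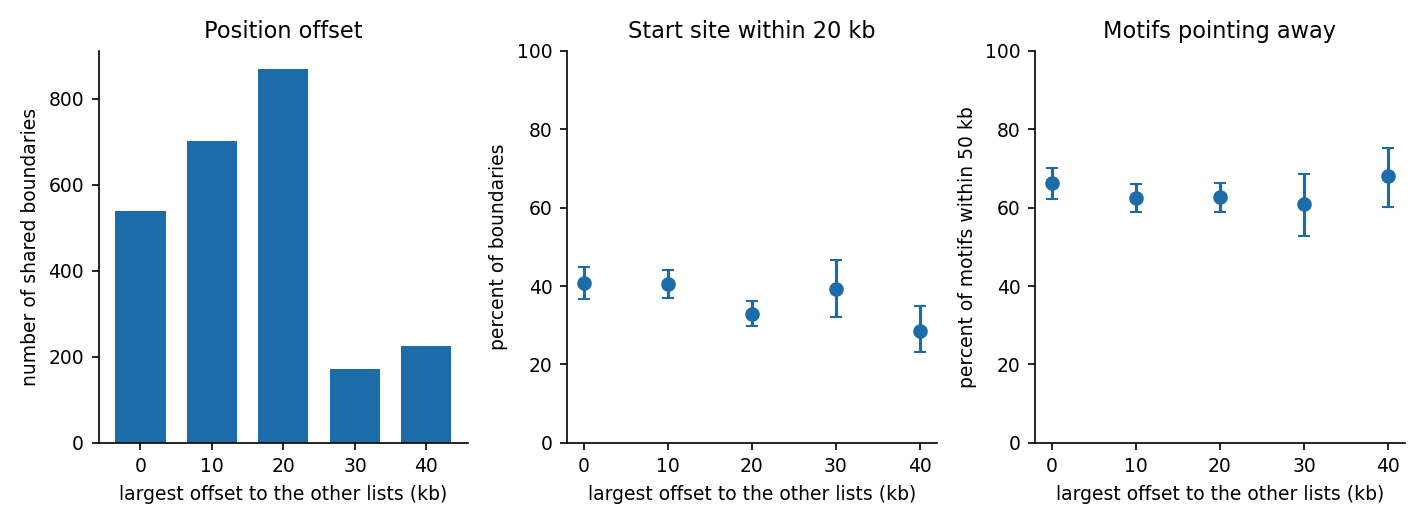
Shared boundaries by the largest offset to the other 3 lists in kb. The left panel gives their number, the middle panel the percent with a RefSeq protein-coding start site within 20 kb and the right panel the percent of CTCF core motifs within 50 kb that point away from the boundary point, with 95% Wilson intervals. The start site share is 40.7% with no offset and 28.6% at 40 kb, while the share of motifs pointing away lies between 61.0% and 68.1% at every offset.

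CTCF motifs were most frequent at shared boundaries. The core consensus motif, searched on both strands, lay within 20 kb of 28.5% of shared boundaries (95% Wilson interval 26.8% to 30.3%, counting error only), 24.5% of partly matched boundaries (22.0% to 27.2%) and 16.9% of unmatched boundaries (12.9% to 22.0%). Over all points spaced 20 kb apart on the autosomes the share was 16.8%, so that unmatched boundaries lay at the share of the whole genome. In the 20-kb window at the centre, shared boundaries had 19.7 motifs per 100 windows, against 11.2 ± 0.74 (SD over 22 windows) in the windows 300 to 500 kb away, a ratio of 1.77. This ratio was 1.57 for partly matched and 1.44 for unmatched boundaries, whose centre of 13.1 stood against 9.06 ± 1.5 in the flanks. The exact pattern CCAGGGGGC, a shorter search with some overlap with the core motif, lay near 35.2% of shared, 32.9% of partly matched and 23.1% of unmatched boundaries and near 30.3% of all points.

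Most of the motifs near shared boundaries pointed into the TAD on their own side. Between 10 and 50 kb from the point, 1116 of 1700 core motifs (65.6%, 63.4% to 67.9%) pointed away from it and 584 towards it. Between 50 and 110 kb the share was 64.3% (62.1% to 66.5%), and between 110 and 210 kb it was 53.8% (51.8% to 55.7%). At partly matched boundaries the share between 10 and 50 kb was 61.7% (57.7% to 65.5%), and at unmatched boundaries it was 55.1% of 107 motifs, with an interval of 45.7% to 64.2% that includes an even split. The minus strand was most frequent in the window centred 40 kb before the shared boundary, with 298 motifs against 145 on the plus strand, and the plus strand was most frequent 20 kb behind it, with 294 against 174.

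**Figure D2:**
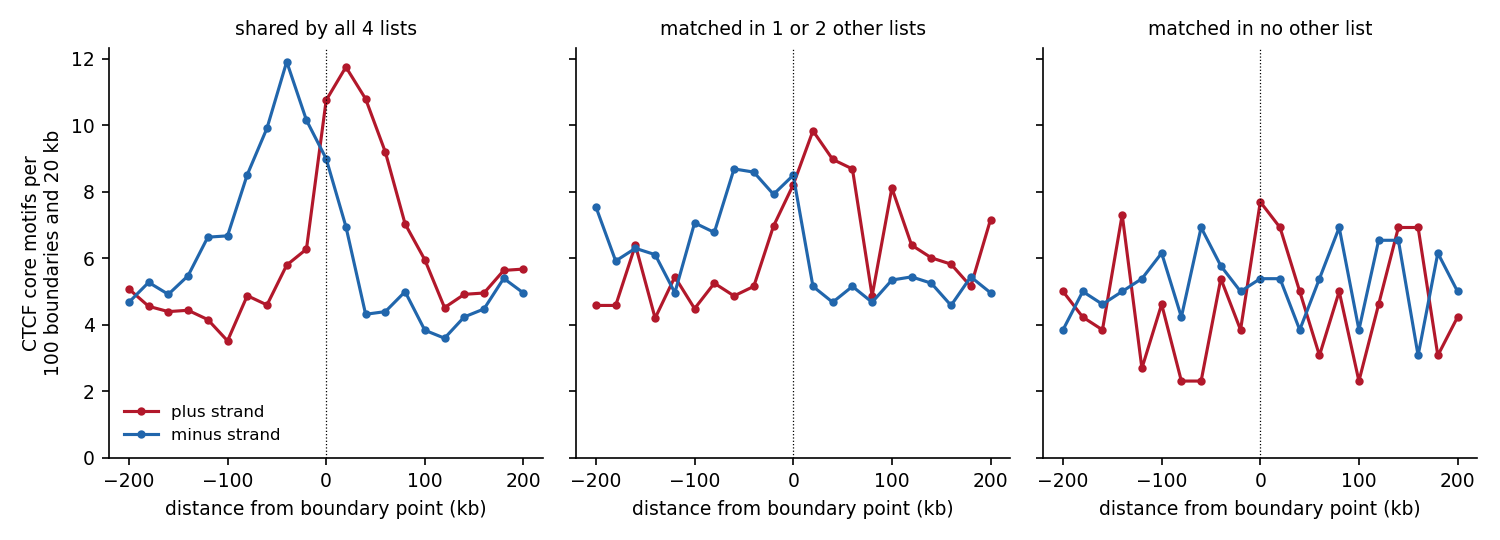
Matches of the CTCF core motif per 100 boundaries in windows of 20 kb, by distance from the boundary point in kb, on the plus strand in red and on the minus strand in blue. The 3 panels show the 2503 shared, 1048 partly matched and 260 unmatched boundaries. At shared boundaries the minus strand has 11.9 matches per 100 at 40 kb before the point and the plus strand 11.7 at 20 kb behind it, and the strands are close together 200 kb away.

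Motif direction was similar in the compartments. Of core motifs within 50 kb, 63.6% pointed away at shared boundaries that were A on both sides in all 7 libraries, 63.1% at those that were B on both sides and 60.9% at those with a sign change, with intervals that overlap. The frequency of the motif differed between them, since 34.3% of the A boundaries and 17.97% of the B boundaries that were shared held a match within 20 kb. Within the A state the shares of the 3 classes were 34.3%, 32.1% and 35.9%, and within the B state they were 17.97%, 15.7% and 9.32%. Of the matches of the shorter exact pattern within 50 kb, 51.4% pointed away.

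None of the 11 placed genes that encode this machinery lay near a shared boundary. CDCA5, the cohesin protector sororin, was low, with 0.0668 to 0.612 TPM, and the other 10 were above 15 TPM in every library. CTCF itself had between 21.1 and 49.3 TPM, the cohesin subunit RAD21 between 72.2 and 131 TPM and the cohesin subunit SMC3 between 46.5 and 137 TPM. NIPBL, the cohesin loader, was between 20.6 and 99.8 TPM, and WAPL, which releases cohesin, was between 38.4 and 86.8 TPM. No gene of this list was called between breeds over both depots or between depots, and the lowest adjusted p (edgeR) was 0.148, for SMC3 between depots. Of all genes tested, 0.420% were called between breeds, and 2.29% were higher and 1.29% lower in GOM.

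Shared boundaries stood more often where PC1 changed sign. The mean of the 3 bins (60 kb) on each side was taken, and in the 7 libraries 15.2% ± 0.37 (SD, n = 7 libraries) of shared boundaries had a sign change. The share was 9.62% ± 0.55 for partly matched boundaries, 4.12% ± 0.99 for unmatched boundaries and 6.23% ± 0.23 for all points spaced 20 kb apart, and the lowest library of the shared class (14.6%) was above the highest of each other class (10.2% for partly matched). PC1 and the TAD lists come from the same contact maps, so these shares are a description with no test. The absolute PC1 difference between the sides, in units of the SD of the chromosome, had a median of 0.262 ± 0.0099 at shared, 0.171 ± 0.0058 at partly matched and 0.112 ± 0.0070 at unmatched boundaries, the last being close to the 0.113 ± 0.0044 of all points.

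The classes also differed in the compartment they lay in. Shared boundaries were A on both sides in 53.0% ± 1.0 and B on both sides in 31.8% ± 1.2, while unmatched boundaries were A in 27.9% ± 0.88 and B in 68.0% ± 0.76. Partly matched boundaries were divided about evenly, with 45.1% A and 45.3% B. In all 7 libraries alike, 1104 shared boundaries were A on both sides, 612 were B on both sides and 144 (5.75%, 4.91% to 6.73%) had a sign change, against 2 of 260 unmatched boundaries (0.769%, 0.211% to 2.76%) and 0.964% of all points. The other 643 shared boundaries varied in state among libraries.

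**Figure D3:**
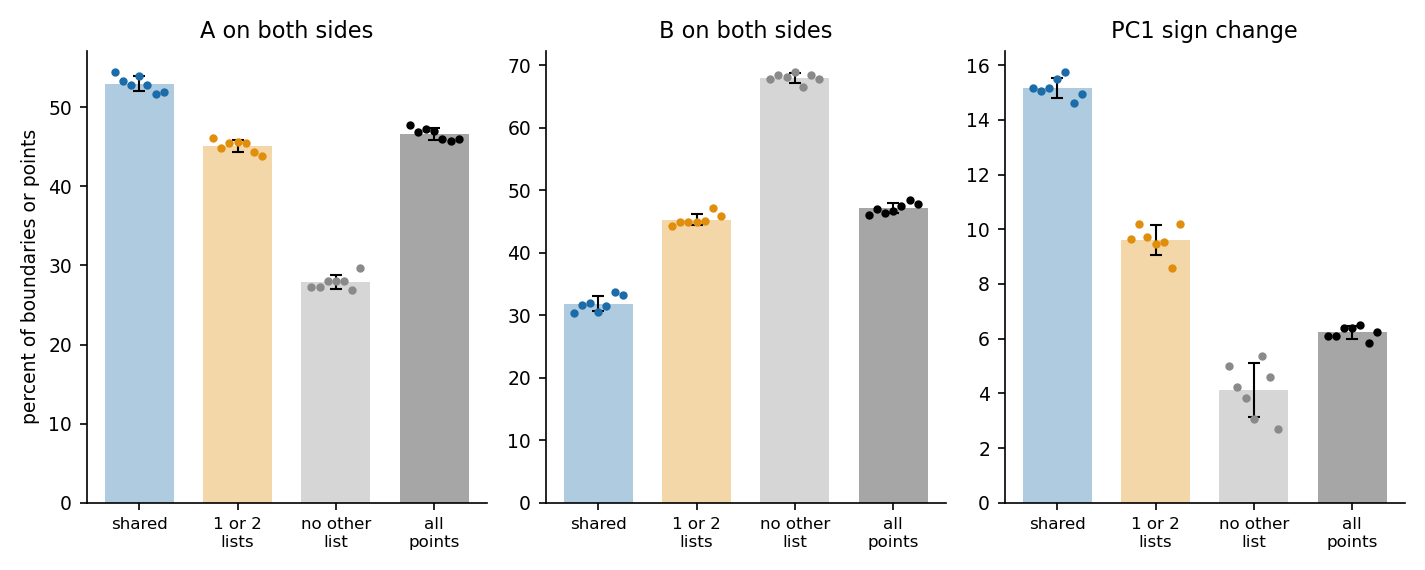
Percent of boundaries with PC1 above 0 on both sides (left), below 0 on both sides (middle) and of different sign (right), for shared, partly matched and unmatched boundaries and for all points 20 kb apart. Points are the 7 Hi-C libraries, bars their mean and error bars their SD. The sign change share of shared boundaries lies between 14.6% and 15.7%, above all libraries of the other classes.

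Few shared boundaries exchanged compartment between groups. In GOM, 12 shared boundaries were A on both sides in both wild boar libraries and B on both sides in both Bama pig libraries, and 6 had the reverse pattern. On chromosome 10 lay 8 of the 12 and 6 of the 6, while over all points it held 354 of 596 and 420 of 499 with these patterns. Between the depots of the wild boars, 4 were A in GOM and B in ULB and 6 were the reverse. These counts are 0.479%, 0.240%, 0.160% and 0.240% of the shared boundaries, against 0.526%, 0.441%, 0.339% and 0.353% of all points.

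Gene start sites were denser at shared boundaries. Of the shared boundaries 36.8% (34.9% to 38.7%) had the start site of a RefSeq protein-coding gene within 20 kb, against 32.5% (29.8% to 35.4%) of partly matched, 23.1% (18.4% to 28.6%) of unmatched boundaries and 23.2% of all points. In the window at the centre there were 27.5 start sites per 100 shared boundaries, 1.49 times the 18.5 ± 0.72 (SD over 22 windows) found 300 to 500 kb away. This ratio was 1.27 at partly matched and 1.08 at unmatched boundaries. The order held only in part when boundaries of the same compartment were compared. Among boundaries that were A on both sides in all 7 libraries, 51.5% of shared, 54.0% of partly matched and 57.8% of 64 unmatched boundaries had a start site, with overlapping intervals. In the B state the shares were 16.3% (13.6% to 19.5%), 12.9% (9.96% to 16.6%) and 8.70% (5.25% to 14.1%).

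Start sites were split about evenly, with 659 of 1330 genes (49.5%, 46.9% to 52.2%) near shared boundaries transcribed away from the point. The point itself lay inside a protein-coding gene at 53.0% of shared, 49.2% of partly matched and 43.8% of unmatched boundaries and at 48.4% of all points. Median GC content within 20 kb was 41.8%, 41.2% and 38.6% in the 3 classes and 40.6% over all points. Transfer RNA genes, which have been linked to domain borders, lay near 10 shared (0.400%), 8 partly matched (0.763%) and 0 of 260 unmatched boundaries, which allows a share of up to 1.46%, and near 0.358% of all points.

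**Figure D4:**
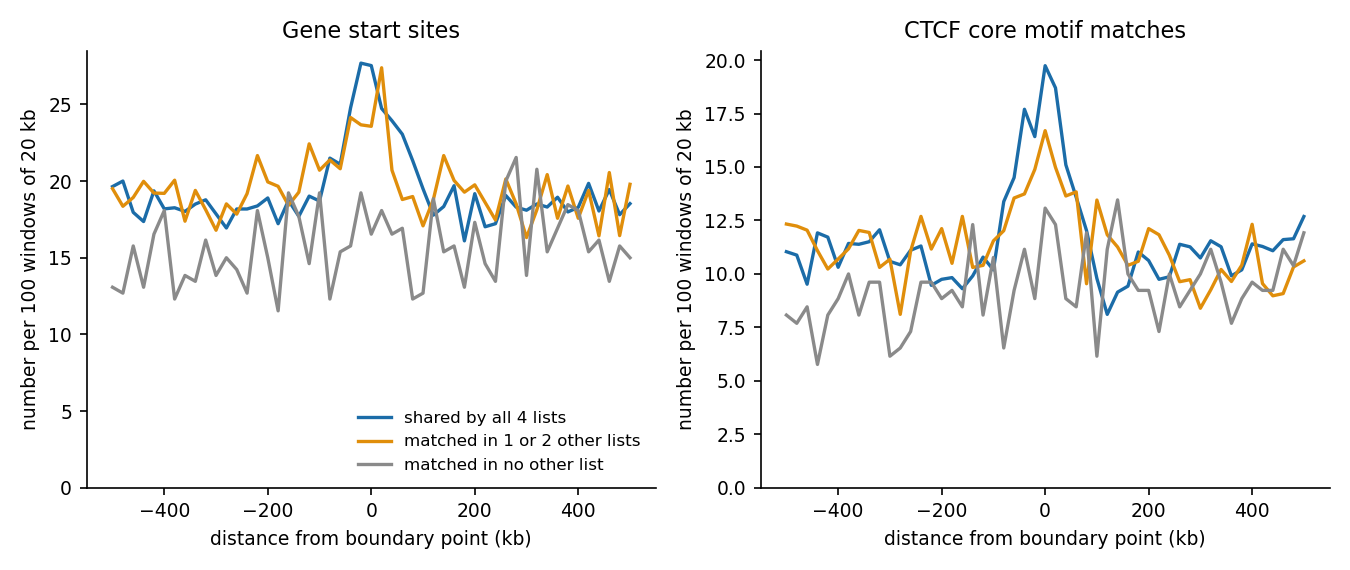
Number of RefSeq protein-coding start sites (left) and of CTCF core motif matches (right) per 100 windows of 20 kb, by distance from the boundary point in kb, for shared, partly matched and unmatched boundaries. Shared boundaries reach 27.5 start sites and 19.7 motifs in the central window and about 18.5 and 11.2 in the flanks.

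For expression, 974 genes could be placed with a start site within 20 kb of a shared boundary, 7.43% of the 13104 autosomal genes placed through their symbols. Another 355 lay near partly matched and 64 near unmatched boundaries, and no gene lay near a shared boundary and another at once. Of the 974 genes, 765 had a mean of at least 1 TPM and 17 were listed at 0 in every library. The total estimated counts of the RNA-seq libraries were between 10833153 and 18627076. The listed TPM values summed to between 774260 (BM-ULB replicate 2) and 956616 (BM-GOM replicate 1), and they were not rescaled to a common sum.

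Genes near shared boundaries were expressed at a level close to that of all placed genes. Their median was 9.48 and 8.36 TPM in WB-GOM, 8.96 and 9.90 TPM in WB-ULB, 12.6 and 12.4 TPM in BM-GOM and 8.46 TPM in BM-ULB. Over the 7 libraries this was 10.03 ± 1.8 TPM (SD), beside 10.03 ± 2.0 TPM for all placed genes and 9.06 ± 1.5 TPM for genes near partly matched or unmatched boundaries. The ratio to the latter genes was 1.11 ± 0.036 and above 1 in 7 of 7 libraries, and the ratio to all placed genes was 1.00 ± 0.037 and above 1 in 4 of 7. The libraries share the gene lists, so these counts are no test. Among start sites in B bins, the median was 1.57 ± 1.4 TPM near shared boundaries and 0.771 ± 0.34 TPM near the others, a difference within the spread between libraries.

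The genes with the highest levels near shared boundaries were mainly those of the cytosolic ribosome. Of 44 placed ribosomal protein genes, 11 (25.0%) had their start site near a shared boundary and 1 near another boundary, beside 7.43% and 419 of 13104 for all placed genes. The 11 were RPLP1, RPS28, RPS24, RPS18, RPS12, RPS23, RPL37, RPS13, RPL35, RPS27A and FAU. RPLP1, a stalk protein of the large subunit, had 8602 and 10941 TPM in WB-GOM, 9600 and 9513 TPM in WB-ULB, 3505 and 11224 TPM in BM-GOM and 4179 TPM in BM-ULB. RPS24, a protein of the small subunit, had between 2431 and 4966 TPM, and its boundary was at the same point in all 4 lists. Ribosomal protein genes have many near-identical processed copies, so their estimated counts are uncertain. None of the 11 was called between breeds or depots over all libraries, and neither was any other of the 44. Of all genes tested, 0.420% were called between breeds, and 2.29% were higher and 1.29% lower in GOM.

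RPS23, a protein of the small subunit, was highly expressed at a boundary with PC1 below 0 on both sides in all 7 libraries. It had 2959 and 3849 TPM in WB-GOM, 2472 and 2658 TPM in WB-ULB, 1990 and 2885 TPM in BM-GOM and 1915 TPM in BM-ULB. PC1 beside its boundary was between -10.3 and -1.86 on the left and between -19.0 and -9.43 on the right. At RPLP1, PC1 was between 50.1 and 64.6 on the left and between 56.5 and 61.5 on the right.

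Among the adipocyte genes, 2 of 36 placed genes lay near a shared boundary (5.56%). THRSP, a nuclear protein that promotes lipogenesis, had 878 and 3202 TPM in WB-GOM, 1521 and 918 TPM in WB-ULB, 1678 and 1966 TPM in BM-GOM and 444 TPM in BM-ULB. DGAT2, which adds the last acyl chain to triglycerides, lay between 82.2 and 491 TPM. The single BM-ULB library was the lowest for both genes, WB-GOM overlapped with WB-ULB and with BM-GOM for both, and neither gene was called by edgeR. Over all libraries, none of the 35 tested genes of that list was called between breeds or depots. The shares over all genes tested were 0.420% between breeds, and 2.29% higher and 1.29% lower in GOM. ADIRF, an adipogenesis regulatory factor outside that list, was the second most abundant gene near shared boundaries, with 5935 to 9845 TPM in 5 libraries and 772 and 1194 TPM in BM-GOM replicate 1 and BM-ULB replicate 2.

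Other groups of genes were near shared boundaries as follows. The nuclear genes of the respiratory chain had 5 of 35 placed members there (14.3%), led by COX7A2, a subunit of cytochrome oxidase, with 162 to 637 TPM, and NDUFB10, a subunit of complex I, with 111 to 170 TPM. Another 2 of the 35 lay near the other boundaries. The proteasome had 3 of 28 (10.7%), namely PSMC1, PSMD7 and PSMA2, and another 3 near the other boundaries. The leukocyte list had 1 of 24 (4.17%), the T cell receptor component CD3D with 2.39 to 10.2 TPM. Both PSMD7 and PSMA2 stood at a boundary with a sign change in all 7 libraries, PSMD7 with PC1 between -32.4 and -24.5 on the left and between 6.81 and 15.6 on the right. Patterning transcription factors had 8 of 40 (20.0%), which were NR2F2, NR2F1, IRX1, HOXD9, HOXA9, HOXA10, HOXD10 and HOXA11. HOX genes stand side by side in clusters, so the 5 HOX members represent 2 places in the genome. Between depots, edgeR called 5 of 35 tested patterning genes higher and 11 lower in GOM. Near shared boundaries these counts were 0 and 1 of 7. The leukocyte list had 4 of 24 tested genes higher in GOM and 0 lower, and no respiratory chain or proteasome gene was called. Of all genes tested, 2.29% were higher and 1.29% lower. Of 8 genes that the study tied to breed-specific TADs, 0 lay near a shared boundary, as did 0 near the other WB-GOM boundaries.

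The spread of expression over the 7 libraries was close to that of all genes. The SD of log2 CPM had a median of 0.442 for 765 genes near shared boundaries, 0.484 for 275 near partly matched and 0.434 for 50 near unmatched boundaries, and 0.475 for all 10316 placed genes with at least 1 TPM. An SD above 1 was found for 8.50% of the first, 11.3% of the second and 24.0% of the third group of genes, and for 11.3% of all. In the third of genes with the lowest expression these shares were 19.3%, 25.2%, 57.9% of 19 genes, and 25.3% of all. Without WB-ULB replicate 1 the difference of the medians between shared and other boundaries went from -0.03 to -0.0020, and without BM-GOM replicate 2 to -0.0072.

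The 5 least variable genes near shared boundaries were DYM, HERC3, AFTPH, ATP6V1H and ATG3. DYM, a Golgi protein, had 40.9 and 34.2 TPM in WB-GOM, 42.5 and 48.1 TPM in WB-ULB, 58.5 and 49.98 TPM in BM-GOM and 35.8 TPM in BM-ULB, with an SD of log2 CPM of 0.0867. HERC3, a ubiquitin ligase, AFTPH, an accessory protein of clathrin traffic, ATP6V1H, a subunit of the vacuolar proton pump, and ATG3, the E2-like enzyme of autophagy, had SDs between 0.105 and 0.126. The most variable genes were GPM6A, ISL1, IRX1, CLDN3 and SCGB1D1, with SDs between 2.55 and 3.10. SCGB1D1, a secretoglobin, rested on WB-ULB replicate 1 alone with 55.4 TPM, against 0 to 0.909 TPM in the other 6 libraries.

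Between breeds, edgeR over all libraries called no gene near a shared boundary, and DESeq2 called some. In GOM, 868 of the 974 genes passed the filter of 0.1 TPM, and edgeR's quasi-likelihood test called 0 of them (adjusted p under 0.05 with a change of more than 1 on the log2 scale), beside 0.0241% of all 16615 genes tested. At an unadjusted p under 0.05 there were 48 (5.53%), beside 8.0% of all genes, and DESeq2 called 6 (0.691%), beside 1.01% of all. Near the other boundaries these counts were 31 of 371 genes (8.36%) and 4 (1.08%). Over both depots, 900 genes were tested and 0 were called by edgeR, beside 0.420% of all 17877 genes. The fits over both depots counted the GOM and ULB libraries of an animal as separate, so their p-values for breed do not measure the spread between animals. At an unadjusted p under 0.05 there were 163 (18.1%), beside 21.6% of all, and DESeq2 called 33 (3.67%), beside 6.47% of all. Near the other boundaries the shares were close to these, with 71 of 384 genes (18.5%) and 15 (3.91%), and edgeR called 2. All genes tested include genes that could not be placed, while the genes near boundaries are placed genes only. Without BM-GOM replicate 2, edgeR called 77 genes near shared boundaries over both depots and 1805 of all genes. Without WB-GOM replicate 1 it called 1 over both depots, and in GOM it called 4 without WB-GOM replicate 1 and 5 without WB-GOM replicate 2. In the fit without BM-GOM replicate 2, the Bama libraries were BM-GOM replicate 1 and BM-ULB replicate 2. Both were below all other libraries for ADIRF, RPLP1, RPS18, RPS12, RPS23, RPS13, COX7A2, NDUFS6, PSMA2 and DGAT2. This did not hold for RPS28, RPS24, RPL37, THRSP, NDUFB10, NDUFC2, PSMC1 or PSMD7, and the cause was not tested. The median log2 fold change over both depots (wild boar over Bama pig) was 0.09 near shared boundaries, 0.08 near the other boundaries and -0.04 over all genes.

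Between depots, 19 of the 900 genes near shared boundaries were called by edgeR over both breeds. Of these, 12 (1.33%) were higher in GOM, beside 2.29% of all genes, and 7 (0.778%) were lower in GOM, beside 1.29% of all genes. Near the other boundaries, 9 and 8 of 384 genes were called. Without BM-ULB replicate 2 the count near shared boundaries was 8, and without WB-ULB replicate 1 it was 12. The libraries of both depots come from the same animals, which this fit does not use. In bulk tissue, fewer cells of a type and less RNA per cell cannot be told apart.

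ISL1, a LIM homeodomain transcription factor (ENSSSCG00000016883, chromosome 16, 30962994 to 30974201), was detected almost exclusively in GOM. It had 7.46 and 2.52 TPM in WB-GOM and 5.03 and 6.48 TPM in BM-GOM, was listed at 0 in both WB-ULB libraries and had 0.0694 TPM in BM-ULB. Rounded to whole counts, this was 530 counts in GOM and 1 in ULB, a ratio per total count of 354 with an exact interval of 63.3 to 14022 for counting error only. The adjusted p was 0.0010 (edgeR). GPM6A, a neuronal membrane glycoprotein (chromosome 15, 38258496 to 38555129), had 170 and 76.7 TPM in WB-GOM, 93.7 and 140 TPM in BM-GOM, 1.95 and 2.53 TPM in WB-ULB and 1.39 TPM in BM-ULB. Its log2 fold change (GOM over ULB) was 5.96 ± 0.38 (approximate SE worked back from the test statistic; adjusted p = 6.4e-05, edgeR), and the depots did not overlap.

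CLDN3, a claudin of epithelial tight junctions (chromosome 3, 11019073 to 11020102), had 95.2 and 51.9 TPM in WB-GOM, 42.0 and 49.6 TPM in BM-GOM and 0 to 4.39 TPM in the 3 ULB libraries, with a log2 fold change of 5.33 ± 0.70 (adjusted p = 0.0030, edgeR). AMBN, an enamel matrix protein, was at 6.72 to 19.1 TPM in GOM and 1.16 to 2.62 TPM in ULB, a log2 fold change of 2.52 ± 0.41 (adjusted p = 0.0081, edgeR). S100A8, a calcium-binding protein of neutrophils, had 362 and 180 TPM in WB-GOM, 28.6 and 91.0 TPM in BM-GOM, 49.6 and 17.99 TPM in WB-ULB and 2.36 TPM in BM-ULB, so that the depots overlapped. FGFR4, a receptor of fibroblast growth factors, lay between 0.929 and 3.94 TPM in GOM and between 0.126 and 0.398 TPM in ULB. The calls of S100A8 (adjusted p = 0.011, edgeR) and of FGFR4 (0.033) were lost without BM-ULB replicate 2, S100A8 with an adjusted p of 0.092. FGFR4 was also lost without WB-GOM replicate 1 or either WB-ULB replicate, with an adjusted p of up to 0.17 (edgeR).

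The genes lower in GOM included further regulators of patterning and metabolism. IRX1, an Iroquois homeodomain factor (chromosome 16, 77695704 to 77701089), had 0.107 and 0.882 TPM in WB-GOM, 0.0494 and 0 TPM in BM-GOM, 10.6 and 8.25 TPM in WB-ULB and 7.54 TPM in BM-ULB, a log2 fold change of -5.11 ± 0.89 (adjusted p = 0.012, edgeR). EMX2, another homeodomain factor, lay between 0 and 0.407 TPM in GOM and between 3.51 and 10.2 TPM in ULB, a log2 fold change of -5.01 ± 0.84 (adjusted p = 0.0096). PPARGC1A, the coactivator of mitochondrial biogenesis (chromosome 8, 17841844 to 18527953), had 0.585 and 0.320 TPM in WB-GOM, 1.01 and 0.523 TPM in BM-GOM, 5.05 and 3.24 TPM in WB-ULB and 4.57 TPM in BM-ULB, a log2 fold change of -3.03 ± 0.44 (adjusted p = 0.0046). FBLN7, a fibulin of the extracellular matrix, was at 0.846 to 1.22 TPM in GOM and 7.56 to 15.9 TPM in ULB. NEDD9, a scaffold of adhesion signalling, was at 11.7 to 18.9 TPM in GOM and 29.3 to 39.9 TPM in ULB, and PPP2R3A, a regulatory subunit of phosphatase 2A, at 19.9 to 54.8 and 56.3 to 75.7 TPM. All p-values of these 6 genes are from the same edgeR fit over 7 libraries, and without BM-ULB replicate 2 the calls of IRX1 (adjusted p = 0.095), EMX2 (0.12), PPARGC1A (0.065), NEDD9 and PPP2R3A were lost. NEDD9 was also lost without WB-ULB replicate 1, and PPP2R3A without any 1 of the 4 wild boar libraries.

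**Figure D5:**
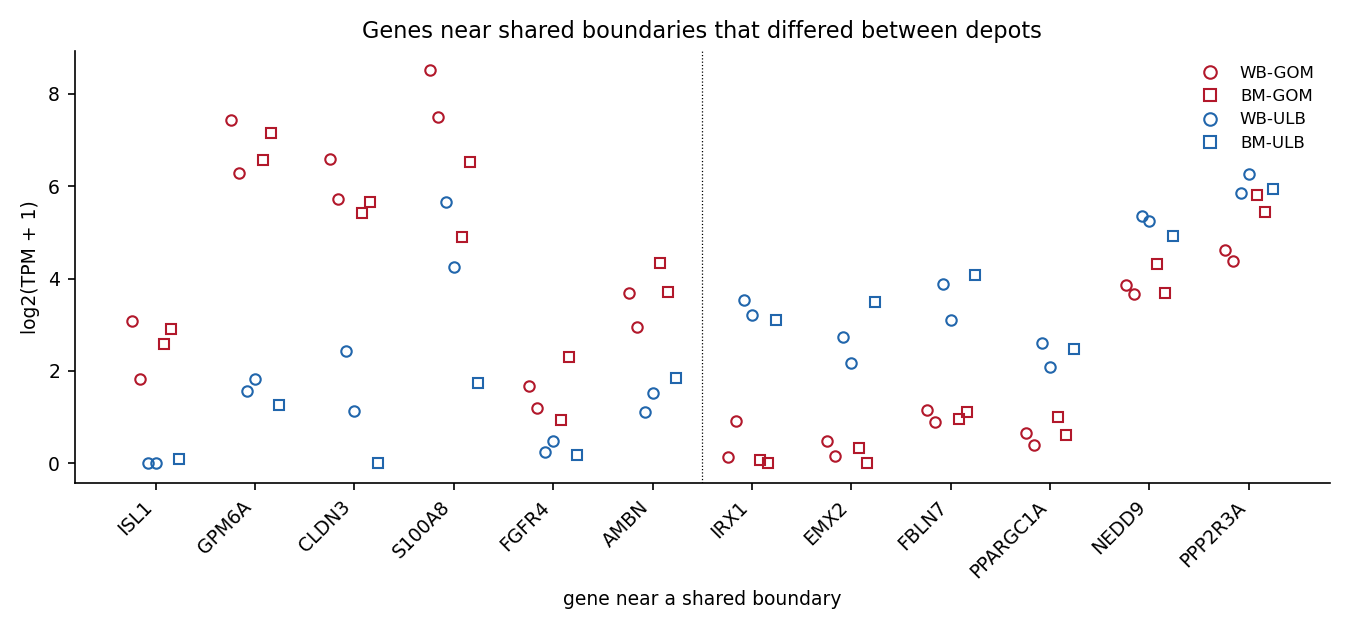
Expression as log2(TPM + 1) in the 7 libraries of the 12 named genes near shared boundaries that were called between depots, 6 higher in GOM left of the dotted line and 6 lower in GOM right of it. Red marks are GOM and blue marks ULB, with circles for wild boar and squares for Bama pig. The depots do not overlap except for S100A8, where 28.6 TPM in a GOM library lies below 49.6 TPM in an ULB library.

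Of the marker lists for other cell types, the mesothelial one separated the depots, and the part of any of them in these differences was not tested. WT1, the only 1 of 5 mesothelial markers that could be found by symbol, had 72.9, 19.9, 83.7 and 46.1 TPM in GOM, was listed at 0 in WB-ULB replicate 1 and had 0.103 and 0.253 TPM in the other ULB libraries. The 5 leukocyte markers summed to 46.9 to 190 TPM in GOM and to 34.7 to 56.9 TPM in ULB, with overlap. The 3 erythroid markers summed to 7919 and 12602 TPM in WB-GOM and to at most 2317 TPM elsewhere, and the 2 skeletal muscle markers found reached 185 TPM in WB-ULB replicate 1, against 2.01 to 5.32 TPM in the others. The 5 liver markers summed to 497 and 1282 TPM in BM-GOM and to 170 to 249 TPM elsewhere. The 5 adipocyte markers, with sums of 9518 to 17942 TPM, were present in every library.

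Beside the boundaries of these genes, PC1 of the depots did not overlap on 5 of 12 sides for the named genes higher in GOM and on 1 of 12 sides for those lower in GOM, beside 23.0% of the sides of all points and 21.7% of 5006 sides at shared boundaries. Of the 5 sides, PC1 was higher in GOM on 4 and lower in GOM on 1. In each group the 12 sides are the left and right of 6 boundaries, so they are not separate observations. Both sides at ISL1 were among the 5. At GPM6A, PC1 of the 60 kb on the left was -12.5 and -2.44 in WB-GOM, 5.73 and 11.3 in BM-GOM, -24.3 and -24.7 in WB-ULB and -28.1 in BM-ULB. At ISL1 it was below 0 in all 7 libraries, with -7.75 to -2.32 in GOM and -14.4 to -9.12 in ULB on the left. At IRX1 it was -8.997 to -4.56 in GOM and -3.65 to 4.21 in ULB on the right. At AMBN, whose expression was higher in GOM, it was 14.4 to 22.5 in GOM and 23.4 to 26.4 in ULB on the right. PC1 comes from the floating adipocyte layer, while the paper describes no such separation for the RNA, so the assays may cover different cells.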

How the data were processed

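Hi-C and RNA-seq values of 7 libraries each were used, grouped by breed, depot and replicate number from the sample labels. The authors called TADs at 20-kb resolution from KR and quantile normalized contact maps of merged replicates with the directionality index and the insulation score, and deposited TAD starts and ends. For each library the authors deposited compartment scores in bins of 20 kb under the name of an A-B index. These average 0 on each chromosome and were read here as PC1. On each chromosome the authors assigned its positive or negative bins to A by the correlation with gene density. Positive values were read here as A on every chromosome, with no new orientation. On average over the libraries, 85.1% of placed genes had their start site in a bin read as A. Protein-coding genes were quantified by the authors with Kallisto, in version 0.43.0 per the processing notes, on Sscrofa11.1, and they deposited an estimated count and a TPM value per gene. Neither aligned reads nor contact counts were used here, so TAD and PC1 values carry no counting interval.

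Estimated counts were rounded and tested with edgeR 4.0.16 (quasi-likelihood F test, TMM, Benjamini-Hochberg, two-sided) in R 4.3.3, among genes with a TPM above 0.1 in all libraries of at least 1 group: breed in GOM (2 against 2), and breed and depot together over 7 libraries. The SE printed for a log2 fold change is its absolute value divided by the square root of the F statistic, an approximation that edgeR does not report. DESeq2 1.42.0 was the alternative. SD was taken over log2 CPM with a prior count of 2. Genes were placed by symbol in RefSeq, 13104 of 21280 (61.6%). The lengths of all 18 autosomes were the same in the Hi-C values and the reference. Replicates are separate libraries, and with 2 animals per breed p-values measure the spread between these libraries. Shares of boundaries carry Wilson intervals for counting error only, and classes were compared without a test. Of shared boundaries, the genes named have the 10 highest mean TPM, the 5 smallest and 5 largest SD, up to 6 per direction with the largest fold change among those called (mean TPM of at least 1), and up to 4 per gene list. The members and lists were chosen with earlier results of these data known. Scripts were tested on simulated data. Plots and other values were made with Python 3.11.15, numpy 2.4.6, pandas 2.3.3, scipy 1.17.1 and matplotlib 3.10.9.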

Additional observations from a re-analysis of the deposited data

How the results depend on the processing

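The number of shared boundaries was between 2095 and 2881 with other match distances, a gap of at most 100 kb or boundaries taken from the BM-ULB list (2502), within 1.5 times the reported 2503. The share of boundaries with a start site was 6.10 percentage points higher for shared than for other boundaries, 11.07 points with start sites within 50 kb and 9.72 points with matches within 80 kb, and it turned to -3.03 points among boundaries that were A on both sides, a split chosen after seeing the data. The ratio of median TPM (1.11) was 1.15 from the mean of log2(TPM + 0.1), 1.19 with start sites within 50 kb and 1.10 to 1.12 without each library. The difference of median SD (-0.03) was -0.039 to -0.0020 without each library. The difference in PC1 sign changes (6.65 points) was 3.20 points with 1 bin on each side, 10.3 points with 10 bins and 6.53 to 6.75 points without each library.

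Breed calls in GOM (4) were 167 with DESeq2, 26 without the filter, 15 with the replicate block and 0 to 123 without each library, and near shared boundaries (0) they were 6, 1, 0 and 0 to 5. Breed calls over both depots (75) were 1157 with DESeq2, 503 without the filter, 65 with the replicate block and 1 to 1805 without each library, and near shared boundaries (0) they were 33, 12, 0 and 0 to 77, the highest without BM-GOM replicate 2. Without BM-ULB replicate 2, 1 gene was called. Depot calls (640) were 1399, 999, 793 and 230 to 656, and near shared boundaries (19) they were 52, 36, 27 and 8 to 22, with 8 left without BM-ULB replicate 2 and 12 without WB-ULB replicate 1. Of the 12 named depot genes, 5 (ISL1, GPM6A, CLDN3, AMBN and FBLN7) were called under all 10 alternatives. NEDD9 was called under 8, FGFR4 under 6 and PPP2R3A under 5, the other 4 genes lost their call without BM-ULB replicate 2 alone, and no direction was reversed. In the breed fits the replicate block joined same-numbered libraries of different breeds, which are different animals, so it is no pairing of animals. In the depot fit it joined same-numbered libraries of the same breed. The labels do not say that a replicate number marks an animal. Deviations of same-numbered libraries correlated by 0.20 between the WB depots, 0.19 between breeds in GOM and -0.10 between BM-GOM and WB-ULB, so the pairing was not used in the reported fits. BM-ULB has 1 library, assumed to vary like the other groups, and the cause of the changes was not tested. Of core motifs within 50 kb of shared boundaries (63.7% pointing away), other settings chosen after seeing the data gave 51.4% with the exact pattern, 59.1% within 20 kb, 69.3% with a gap of at most 20 kb, 64.2% within 100 kb and 63.7% from the BM-ULB list.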
